A study of Mus musculus with 2 samples.

Results

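miR-146a and miR-146b are microRNAs of separate genes whose guide strands carry the same seed. All 4 mature arms were taken by name from the table of known mouse mature miRNAs: mmu-miR-146a-5p, mmu-miR-146a-3p, mmu-miR-146b-5p and mmu-miR-146b-3p, which are 4 of the 717 miRNAs analysed. Small RNA was sequenced from tumor-associated macrophages (TAMs) and from spleen macrophages (SMs), as 1 library per group. The differences below therefore have no replicate check and come without p-values. TAMs came from tumors of 4T1, a mouse mammary carcinoma line injected into the mammary fat pad of 8-week-old female BALB/c mice, collected after 3 weeks and taken from the digested tumor with anti-CD11b beads. CD11b is an integrin shared by macrophages, monocytes, neutrophils and NK cells, all of which such beads can retain. The paper reports checking purity and viability of the sorted cells by flow cytometry, with CD11b as the cell marker named. SMs came from the spleen of naïve BALB/c mice, whose macrophages were isolated in a way that the methods do not describe, and the number of mice behind each library is not given. The mice of the study were female and 6 to 8 weeks old at purchase, and no genetic change or drug is described for either library.

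A miRNA hairpin gives a 5p and a 3p strand. One strand, the guide, is usually kept by Argonaute and pairs with target mRNAs mainly through its seed, bases 2 to 8, while the other, the passenger, is mostly degraded. miR-146a-5p is induced by NF-κB after Toll-like receptor or IL-1 signaling and restrains that pathway by repressing the adaptors Traf6 and Irak1. miR-146b-5p shares the seed and therefore much of its predicted target set, and in human monocytes its gene has been described as induced by IL-10. The comparison asks how much of the shared seed was present in TAMs and in SMs, and which gene it came from.

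The sequences are shown first because the whole comparison rests on how alike the guides are and where the passengers differ. All 4 arms matched RefSeq entries on mouse build GRCm38.p6, and each equals the sequence in the deposited table. Capitals mark the seed, and each is written 5′ to 3′.
miR-146a-5p: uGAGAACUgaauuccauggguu
miR-146b-5p: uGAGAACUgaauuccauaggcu
miR-146a-3p: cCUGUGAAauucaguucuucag
miR-146b-3p: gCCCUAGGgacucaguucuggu

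The guides are identical at 20 of 22 bases. Counted from 1 at the 5′ end and read from miR-146a-5p to miR-146b-5p, the differences are G18A and U21C, so the first 17 bases are the same and a read had to extend to base 18 to tell the guides apart. No other miRNA of the table carries the seed GAGAACU. Compared base by base without a shift, the 3p arms share 4 of 22 positions. That count understates how alike they are, since both hold the stretch ucaguucu, starting at neighbouring positions. Their seeds differ, CUGUGAA and CCCUAGG, and each seed occurs once in the table. Reads of a 3p arm can therefore be placed on 1 locus, which the guides allow only near their 3′ end.

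The hairpins are shown with both arms in capitals, since the passenger counts below depend on where the arms lie.
Mir146: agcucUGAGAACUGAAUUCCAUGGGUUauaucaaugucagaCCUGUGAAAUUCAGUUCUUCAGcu
Mir146b: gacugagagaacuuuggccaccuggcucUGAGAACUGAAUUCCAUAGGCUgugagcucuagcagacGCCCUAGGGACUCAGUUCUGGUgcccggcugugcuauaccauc

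Mir146, the gene of miR-146a, spans 43374397 to 43374461 of chromosome 11 (GRCm38, minus strand). In GENCODE M21 it overlaps no other gene, and the nearest, the lincRNA gene Gm12148 on the plus strand, starts 11021 bases away. Mir146b spans 46342762 to 46342870 of chromosome 19 (plus strand), inside the protein-coding gene Mfsd13a on the same strand and outside its exons, that is in an intron. The mature miR-146a-5p covers 43374435 to 43374456 and miR-146b-5p covers 46342790 to 46342811. The hairpins have 65 and 109 bases, with 14 bases between the arms of Mir146 and 16 between those of Mir146b.

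Levels are given as counts and as the deposited TPM, a count divided by a total per library of 13324721 reads for TAMs and 15422872 reads for SMs, with no length correction. In TAMs a read equals 0.0750 TPM, and in SMs 0.0648 TPM. Known miRNAs held 7333652 reads in TAMs and 10108834 reads in SMs. Intervals are exact 95% intervals that describe counting error alone. PCR copies are not independent molecules, so the true error can be larger.

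miR-146a-5p was far lower in TAMs, while its near-identical relative miR-146b-5p was moderately higher. miR-146a-5p had 7804 reads (586 TPM) in the TAMs library and 272484 reads (17668 TPM) in the SMs library. It was 30.2-fold lower in TAMs (29.5 to 30.9) and ranked 61st among the miRNAs of TAMs, against 8th among those of SMs. Of the 264 miRNAs that reached 10 TPM in TAMs or SMs, none had a smaller ratio of TPM + 1, and on plain TPM only miR-144-5p, miR-144-3p and miR-129-2-3p did. In bulk RNA of this kind, fewer cells of a type and less RNA per cell cannot be told apart.

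miR-146b-5p had 621061 reads (46610 TPM) in TAMs and 425883 reads (27614 TPM) in SMs. Its ratio was 1.69 (1.68 to 1.69), and it was the third most abundant miRNA of TAMs and the fifth of SMs. It made up 8.47% of all miRNA reads in TAMs and 4.21% in SMs, whereas miR-146a-5p made up 0.106% in TAMs and 2.70% in SMs. Of the 4 arms, 2 reached 10 TPM in TAMs or SMs, and these are the guides. Of the guides 1 was at least 2-fold lower in TAMs, where 32.6% of the 264 miRNAs were, and 0 were at least 2-fold higher, where 24.2% were. This background is 64 higher and 86 lower miRNAs with the authors' totals, and 87 higher and 53 lower when the 10 most abundant miRNAs are left out of the totals. The ratio of miR-146b-5p lay under 2-fold with the authors' totals, TMM and DESeq2 size factors. It passed 2-fold when the libraries were scaled to known miRNA reads, at 2.01 with all of them, 2.05 without the 4 arms and 2.38 without the 10 most abundant.

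**Figure D1:**
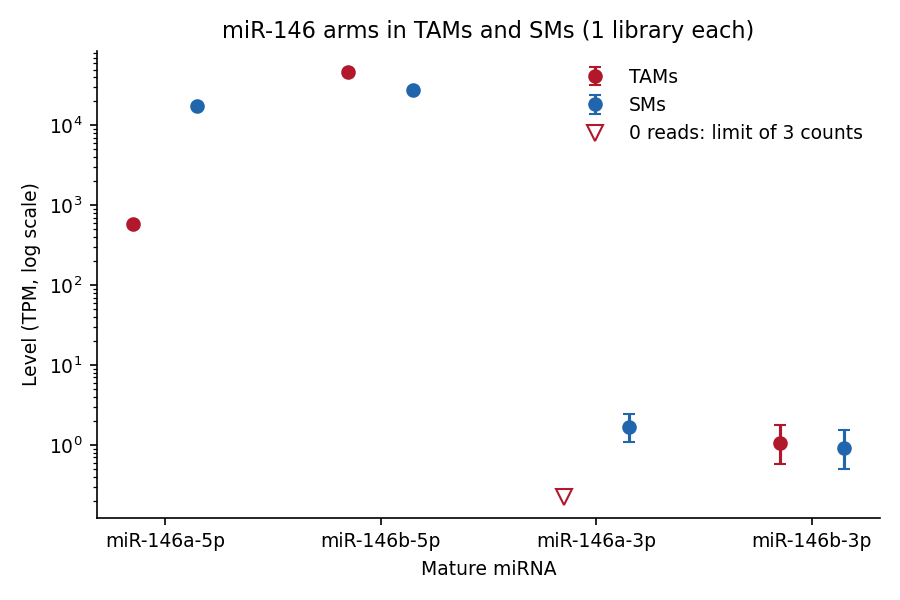
Level of each arm in TPM on a log scale, in the TAMs library (red, left) and the SMs library (blue, right), with exact Poisson 95% intervals of the counts where they are wider than the point. The open triangle marks the level of 3 counts, 0.225 TPM, as the limit for miR-146a-3p, which had 0 reads in TAMs. The guides lie between 586 and 46610 TPM and the 3p arms below 2 TPM.

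Summed over both guides, the seed had nearly the same TPM in TAMs as in SMs. The pool held 628865 reads (47195 TPM) in TAMs and 698367 reads (45281 TPM) in SMs. Its ratio was 1.04 (1.04 to 1.05). The sum is the same however reads were divided between the guides, but a read counted for both guides would enter it more than once, and how many did so was not tested. In TPM, the difference, TAMs minus SMs, was −17082 for miR-146a-5p, 18996 for miR-146b-5p and 1914 for the pool. The pool was higher in TAMs under every scaling tried, but its size depends on the scaling. With the other planned scalings the ratio lay between 1.09, with DESeq2 size factors, and 1.47, with the 10 most abundant miRNAs left out of the totals. As a share of known miRNA reads the pool made up 8.58% in TAMs and 6.91% in SMs.

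The make-up of the pool differed far more than its size, and this comparison needs no scaling between libraries. miR-146a-5p gave 1.24% of the guide reads in TAMs (1.21 to 1.27%) and 39.0% in SMs (38.9 to 39.1%). For each read of miR-146a-5p there were 79.6 reads of miR-146b-5p in TAMs and 1.56 in SMs. The odds of miR-146b-5p over miR-146a-5p were thus 50.9-fold higher in TAMs (49.8 to 52.1, by a normal approximation on the log odds). miR-146b-5p was the more abundant guide in TAMs and in SMs.

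**Figure D2:**
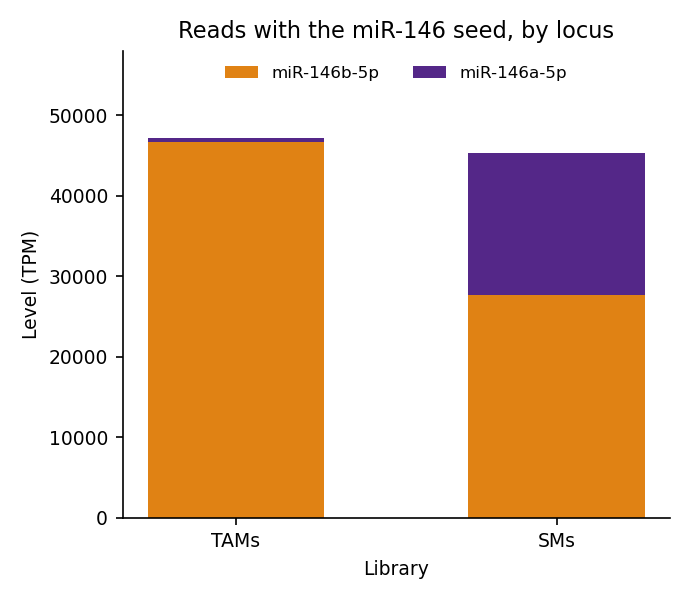
Summed level of the guides that carry the miR-146 seed, in TPM, in TAMs (left) and SMs (right), split into miR-146b-5p (orange) and miR-146a-5p (purple). The bars are 47195 TPM high in TAMs and 45281 TPM high in SMs, and the purple part is 1.24% of the TAMs bar and 39.0% of the SMs bar.

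The sources used here do not say how reads that fit both guides were counted. Where the table lists an identical sequence under more than 1 name, as it does for 11 sequences on 25 rows, the rows hold near-equal counts that differ by at most 1.53%. Whether such reads were counted on each row or divided evenly between rows was not tested. Near-equal counts also occur between sequences that are not identical. miR-3107-3p and miR-486-3p, which differ at 1 base, had 17630 and 17651 reads in TAMs and 81085 and 81115 reads in SMs. The guides do not hold near-equal counts, since miR-146a-5p had 1.26% as many reads as miR-146b-5p in TAMs and 64.0% as many in SMs. The TAMs proportion applied to miR-146b-5p in SMs gives 5351 reads, or 1.96% of the miR-146a-5p reads there. Miscounting between the guides was not tested.

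The guides were also compared with other miRNAs that share a seed. Of 114 pairs of same-arm miRNAs with a common seed and at least 10 TPM, the guides of miR-146 had the second widest difference between log2 ratios of TPM + 1, at 5.67, and the median difference was 0.88. The widest was that of miR-351-5p and miR-125b-5p, at 6.17, and the third that of let-7g-5p and let-7e-5p, at 5.38. These pairs are shown with the seed in capitals, since they differ in how much of the sequence outside the seed is shared.
miR-351-5p: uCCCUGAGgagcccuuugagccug
miR-125b-5p: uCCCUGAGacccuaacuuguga
let-7g-5p: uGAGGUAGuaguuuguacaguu
let-7e-5p: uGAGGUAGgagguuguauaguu

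Compared base by base from the 5′ end, the first of these pairs differs at 14 positions, the extra bases of miR-351-5p included, and the second at 3. Among the 38 pairs that differ at 2 bases or fewer, a limit set after the values were seen, miR-146a-5p and miR-146b-5p had the widest difference, followed by let-7f-5p and let-7e-5p at 4.92. miR-351-5p had 308 TPM in TAMs against 246 TPM in SMs. Its partner miR-125b-5p had 1326 TPM in TAMs against 13.7 TPM in SMs, so in that pair neither member was lower in TAMs. In the miR-146 pair the members lay on opposite sides of 0, as in 39 of the 114 pairs.

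Members that differ and a pool that does not were looked for in every seed family. The table holds 34 seed families with at least 2 members of at least 10 TPM. The log2 ratio of summed TPM + 1 was 0.06 for the miR-146 seed, 1 family lay nearer to 0, and the median distance from 0 was 0.99. The widest difference between members, 5.67, was exceeded by 1 family, that of miR-125, and the median was 0.78. The nearness to 0 rests on the authors' totals. With the other planned scalings 4 to 13 families lay nearer to 0, the most when the 10 most abundant miRNAs were left out. By summed TPM the miR-146 seed was second of the 34 families in TAMs and in SMs, after the family of miR-10a-5p.

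**Figure D3:**
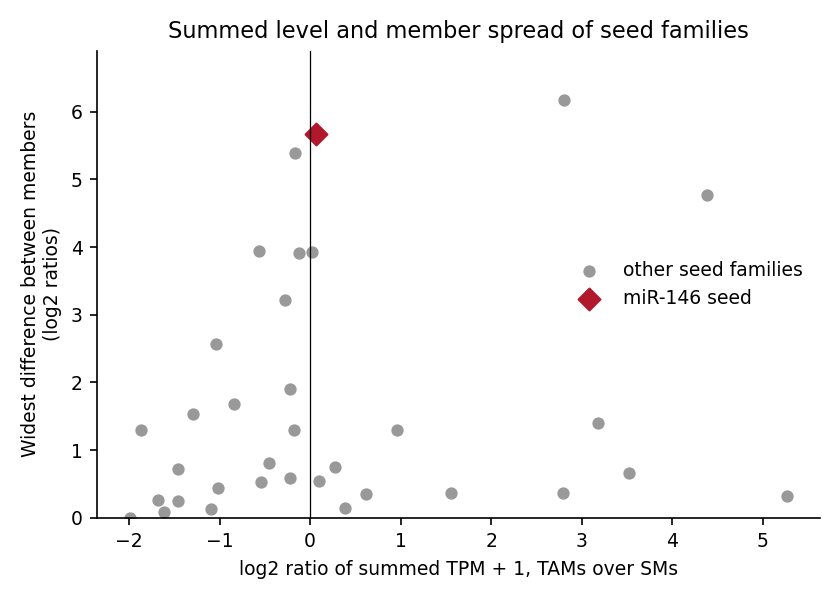
Each point is a family of miRNAs with a common seed and at least 2 members of 10 TPM or more (34 families). The horizontal axis gives the log2 ratio of the family's summed TPM + 1, TAMs over SMs, and the vertical axis the widest difference between log2 ratios of its members. The miR-146 seed (red diamond) lies at 0.06 and 5.67, near the top and near the line of equal pools.

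The passenger arms were scarce in TAMs and in SMs. miR-146a-3p was lower in TAMs, as its guide was, while the reads of miR-146b-3p could not show whether it followed its guide, and a change in the 3p share was not detectable for either hairpin. miR-146a-3p had 0 reads in TAMs and 26 reads (1.69 TPM) in SMs. Taking 3 counts, 0.225 TPM, as the limit for 0 reads, the SMs level was 7.49-fold above that limit. This value leaves out the counting error of the 26 reads. In SMs there were 10480 reads of miR-146a-5p for each read of miR-146a-3p. At that proportion the 7804 reads of miR-146a-5p in TAMs would come with 0.745 reads of miR-146a-3p, so a departure of the 3p arm from its guide was not detectable at this depth. The 3p share of mir-146a was 0 of 7804 reads in TAMs, with an exact interval up to 0.0473%, and 0.00954% in SMs (0.00623 to 0.0140%).

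miR-146b-3p had 14 reads (1.05 TPM) in TAMs and 14 reads (0.908 TPM) in SMs. Its ratio of 1.16 had an interval of 0.511 to 2.62, which holds both an equal level and the ratio of its guide, 1.69. At the proportion of SMs, 20.4 reads would be present in TAMs. The 3p share of mir-146b was 0.00225% in TAMs (0.00123 to 0.00378%) and 0.00329% in SMs (0.00180 to 0.00552%), with overlapping intervals. A difference in the choice of arm was not detectable at this depth.

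Few hairpins were as one-sided as those of miR-146. Among 38 hairpins with at least 10000 reads of both arms in TAMs, mir-146b had the second smallest share of the less abundant arm, and the median share was 0.614%. Among 42 such hairpins in SMs, mir-146b had the third smallest share and mir-146a the sixth smallest, and the median share was 0.620%. Across the 144 hairpins whose less abundant arm reached 10 reads in TAMs or SMs, both arms lay on the same side of 0 in 122. Across hairpins the log2 ratios of the arms were correlated (Pearson's r 0.84, Spearman's rho 0.80), but hairpins share the same libraries and are not independent replicates. Both miR-146 hairpins were among the 122. For mir-146b the side of the 3p arm is uncertain, since the interval of its ratio, 0.511 to 2.62, includes an equal level. mir-146a had the fourth widest difference between arms, at 3.49, after mir-100, mir-9 and mir-183. In each of these 4 the less abundant arm had 0 or 1 read in TAMs or SMs, where the pseudocount of 1 TPM sets the ratio of that arm.

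**Figure D4:**
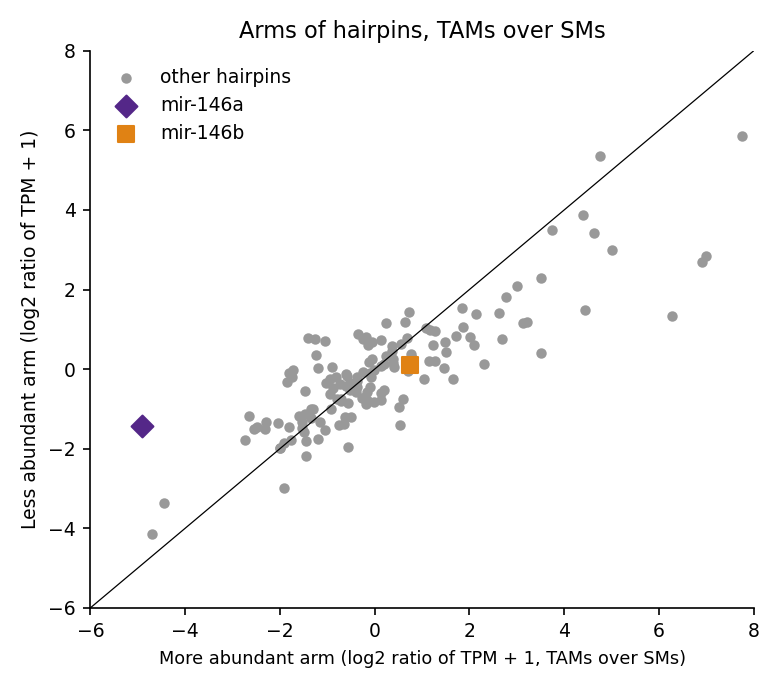
Each point is a hairpin (144), with the log2 ratio of TPM + 1, TAMs over SMs, of its more abundant arm on the horizontal axis and of its less abundant arm on the vertical axis. The line marks equal ratios. mir-146a (purple diamond) lies at −4.91 and −1.43, above the line, and mir-146b (orange square) at 0.76 and 0.10, slightly below it.

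Over both libraries, the miRNAs whose log2 ratio lay nearest to a guide were sought among the other 139 that reached 100 TPM in either library. Nearest to miR-146a-5p were miR-144-3p, at a distance of 0.22, miR-708-3p at 0.46 and miR-451a at 0.81. miR-144-3p and miR-451a come from 1 cluster that is highly expressed in red blood cells. miR-708-3p had 4.28 TPM in TAMs against 115 TPM in SMs. Nearest to miR-146b-5p were miR-181c-5p, at a distance of 0.06, miR-5109 at 0.07 and miR-107-3p at 0.13. With 2 libraries, such nearness describes a ratio and not a shared pattern. miR-146a-5p thus stood with miRNAs of much lower abundance, since in SMs it had 17668 TPM, against 520 TPM for miR-451a and 116 TPM for miR-144-3p.

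Among other miRNAs listed for NF-κB or Toll-like receptor signaling, none that reached 10 TPM was 2-fold lower in TAMs. The list holds 19 miRNAs that NF-κB or Toll-like receptor signaling induces or that act on it. Of the 15 that reached 10 TPM, 11 passed 2-fold upward in TAMs, 0 passed it downward and 4 did neither, and the median log2 ratio was 2.99. The arms of miR-132 and miR-212 come from a shared cluster, and so do miR-221-3p and miR-222-3p. These counts are therefore not all of separate loci. Of the 11, miR-132-3p, miR-132-5p, miR-212-3p, miR-212-5p and miR-9-5p reached 10 TPM only in TAMs. In SMs they had 5.58, 0.908, 0.584, 1.49 and 2.20 TPM, in that order. For such miRNAs the minimum favors an upward call, so it partly sets the split and the median. Over all 264 miRNAs 64 were higher, 86 lower, and the median log2 ratio was −0.36. miR-155-5p, a target gene of NF-κB in activated macrophages, had 238 TPM in TAMs against 71.3 TPM in SMs, 3.33-fold higher (3.11 to 3.57). miR-9-5p, induced by Toll-like receptor signals in human monocytes, had 387 TPM in TAMs against 2.20 TPM in SMs. miR-132-3p, of a cluster driven by CREB, had 211 TPM in TAMs against 5.58 TPM in SMs. miR-21a-5p, at a ratio of 1.52, miR-21a-3p, at 0.593, miR-147-3p, at 0.591, and miR-511-3p, at 0.895, were the 4 that did not reach 2-fold. miR-155-3p, miR-9-3p, miR-147-5p and miR-187-3p were below 10 TPM in TAMs and in SMs. Of these, miR-187-3p had 12 reads in TAMs and 31 in SMs, a ratio of 0.448 (0.210 to 0.897). miR-147-5p had 9 reads in TAMs and 18 in SMs, while miR-9-3p had 78 in TAMs and 1 in SMs. Within the list only miR-155-3p lacked reads in a library, with 7 reads in TAMs and 0 in SMs.

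miRNAs that mark other cell types differed between TAMs and SMs too. All 4 miRNAs of red blood cells were at least 2-fold lower in TAMs, with a summed level of 1376 TPM in TAMs against 6022 TPM in SMs. Most of both sums was miR-486-5p, at 1343 TPM in TAMs against 5355 TPM in SMs, 3.99-fold lower. Red cells were lysed in the tumor suspension, and the methods do not state this for the spleen. Both miRNAs of lymphocytes were lower, at 1160 TPM in TAMs against 3989 TPM in SMs. All 4 miRNAs of leukocytes and myeloid cells were lower, at 7752 TPM in TAMs against 34561 TPM in SMs. Of these miR-142-5p had 5729 TPM in TAMs against 21578 TPM in SMs. miR-223-3p, a miRNA of the myeloid lineage, was present in both, at 1413 TPM in TAMs against 8326 TPM in SMs. All 7 miRNAs of epithelial cells were higher, at 1897 TPM in TAMs against 284 TPM in SMs. Of 4 miRNAs of stromal cells in the table, 3 had at least 10 TPM and 2 of these were higher, and the sums were 2599 TPM in TAMs and 2439 TPM in SMs. Most of both sums was miR-143-3p, at 2388 TPM in TAMs against 2420 TPM in SMs. The ratios of miR-199a-3p, miR-199a-5p and miR-214-3p were 12.1, 6.04 and 11.8, the last from 61 reads in TAMs and 6 in SMs. None of these 21 markers was at 0 in TAMs or SMs. Their part in the difference of miR-146a-5p or miR-146b-5p was not tested.

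The guides were also set against leukocyte and myeloid miRNAs of the same library, such as miR-142-5p, which blood cells of most lineages express. These ratios were not among the planned comparisons. Whether the leukocyte and myeloid miRNAs have the same level per cell in TAMs and SMs was not tested. There were 0.102 reads of miR-146a-5p for each read of miR-142-5p in TAMs and 0.819 in SMs, which is 8.01-fold lower in TAMs. Per read of miR-142-3p it was 3.80-fold lower, and per read of miR-223-3p 5.12-fold lower. For miR-146b-5p there were 8.14 reads per read of miR-142-5p in TAMs and 1.28 in SMs, 6.36-fold higher in TAMs. When the summed leukocyte and myeloid miRNAs served as the total of a library, a choice made after the data were seen, the ratio was 0.148 for miR-146a-5p, 7.53 for miR-146b-5p and 4.65 for their pool. The direction of each guide was thus the same as with the authors' totals, while the pool was 4.65 with this total against 1.04 with the authors'.

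**Figure D5:**
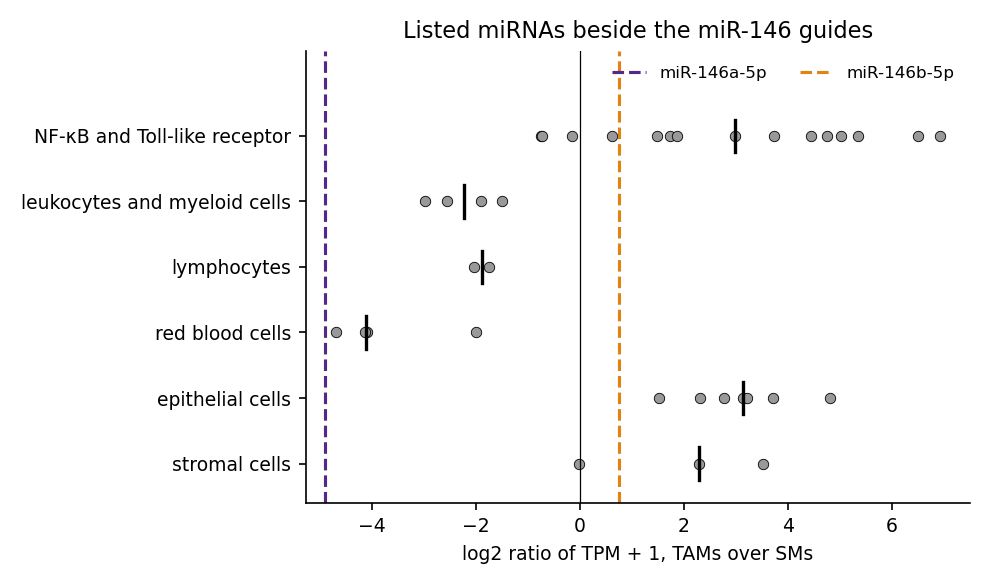
Log2 ratio of TPM + 1, TAMs over SMs, of the miRNAs with at least 10 TPM in each list (points), with the list's median (black bar) and the guides as dashed lines, miR-146a-5p at −4.91 (purple) and miR-146b-5p at 0.76 (orange). The red blood cell list lies nearest to miR-146a-5p, at a median of −4.12, although its miR-486-5p lies at −1.99. The NF-κB list has a median of 2.99.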

How the data were processed

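The authors sequenced small RNA of 1 TAMs and 1 SMs library (TruSeq kit, 3 µg of RNA) and deposited a whole-number count of reads for each known mature miRNA and library. The header states that variants of ±2 bp were added to the miRNA database. The authors also deposited TPM, each count scaled by a total per library, with no length correction. The submitters' processing notes name Bowtie2. Its version, the miRBase release, the genome build and the treatment of reads with several matches were not stated in any source used. The authors' chi-square p-values, ratios and marks were not used. Not analysed here were 2 lines of the table and 1 miRNA of the stromal list.

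Groups came from the sample titles. Ratios of TPM, TAMs over SMs, were given exact conditional binomial 95% intervals, and shares exact Clopper-Pearson intervals (pandas 2.3.3, numpy 2.4.6 and scipy 1.17.1 under Python 3.11.15). Counts of miRNAs past 2-fold and differences between log2 ratios used TPM + 1, over miRNAs that reached 10 TPM in either library. The level of 3 counts was the limit for 0 reads. The members and all lists were chosen with earlier results of these data known. Named miRNAs are the 4 arms, the listed miRNAs, the 3 nearest to each guide, and the 3 widest seed and arm pairs. Others, such as miR-129-2-3p and let-7f-5p, were named after their values were seen. The interval of the odds was planned as exact and computed by a normal approximation. Alternative scalings were TMM (edgeR 4.0.16), DESeq2 1.42.0 size factors (R 4.3.3) and totals of known miRNAs, whole or in part. Calculations were tested on simulated counts. Sequences come from RefSeq (GRCm38.p6) and gene positions from GENCODE M21. Plots used matplotlib 3.10.9.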

Additional observations from a re-analysis of the deposited data

How the results depend on the processing

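No paired analysis was possible because there is a single library on either side. The split between the guides needs no scaling. The ratios of miR-146a-5p, miR-146b-5p and their pool, 0.0332, 1.69 and 1.04 with the authors' totals, were 0.0352, 1.79 and 1.11 with TMM, 0.0348, 1.77 and 1.09 with DESeq2 size factors, 0.0395, 2.01 and 1.24 with all known miRNAs, 0.0402, 2.05 and 1.26 without the 4 arms, 0.0467, 2.38 and 1.47 without the 10 most abundant miRNAs, and 0.148, 7.53 and 4.65 with the leukocyte and myeloid miRNAs, added after the data were seen. No direction of a guide changed. Against the authors' totals, the median log2 ratio of all 264 miRNAs shifted by 0.25 with all known miRNAs, 0.27 without the 4 arms and 0.48 without the 10 most abundant. miRNAs at least 2-fold higher or lower, 64 and 86, were 102 and 115 without a minimum, 34 and 48 at 100 TPM, and 42 and 22 at 4-fold, and 87 and 53 without the 10 most abundant. Hairpins with arms on the same side, 122 of 144, were 61 of 71 at 100 reads. Of 58 alternative values, 32 stayed within the counting interval or within 1.5 times a count, 26 moved beyond it, and 0 reversed. Some of the 32 could not differ, such as arm shares taken from TPM instead of counts. Every alternative scaling moved the ratios of both guides and of the pool beyond the counting interval. The 3p arms, with 0 to 26 reads, are limited by depth. With 1 library per group, differences between animals are not in any interval.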

Other observations

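Other seed families paired a nearly level pool with members that differed, with the authors' totals. They were picked after their values were seen. The family of miR-130a-3p had a log2 ratio of summed TPM + 1 of 0.02, while miR-130a-3p had 495 TPM in TAMs against 75.5 TPM in SMs. Its relative miR-301a-3p had 307 TPM in TAMs against 723 TPM in SMs. The family of miR-28a-5p had −0.12, while miR-28a-5p had 169 TPM in TAMs against 115 TPM in SMs. Its relative miR-708-5p had 6.6 TPM in TAMs against 77.0 TPM in SMs. miR-708-3p, the other arm of that hairpin, was the second nearest to miR-146a-5p by ratio. In the let-7 family of 9 members, at −0.17, let-7e-5p had 333 TPM in TAMs against 14.4 TPM in SMs, while let-7g-5p had 1506 TPM in TAMs against 2895 TPM in SMs.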
